A study of Homo sapiens with 6 samples.

Results

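Mitochondrial ribosomal protein genes were taken as every gene whose symbol is MRPL or MRPS followed by a number and at most 1 letter A, B or C. The rule found 78 of the 60662 genes in the expression files, 49 with large-subunit symbols (MRPL) and 29 with small-subunit symbols (MRPS). Pseudogenes and antisense transcripts were left out. The data came from HCT116, a human colorectal cancer cell line labelled as wild type in the control group, sequenced as poly-A enriched RNA. In 3 libraries the cells carried a lentiviral control hairpin (shCtrl), and in 3 libraries they carried a second hairpin against the long non-coding RNA GMDS-AS1 (GMDS-AS1 shRNA 2, here KD). Both groups were stably transduced, so the viral vector is common to all 6 libraries, and the knockdown rests on a single hairpin in a single cell line. The labels call the libraries biological replicates without saying whether they came from separate transductions, so the p-values measure the spread between these libraries.

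The mitochondrial ribosome translates the few proteins encoded in mitochondrial DNA, all of them membrane subunits of the oxidative phosphorylation complexes. Its ribosomal RNAs are transcribed inside the organelle, while every one of its proteins is encoded in the nucleus, made in the cytosol and imported. The small subunit reads the messenger RNA and the large subunit joins amino acids. Some of the proteins have bacterial counterparts and others were added during the evolution of mitochondria.

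Values are TPM (a level per transcript length with nearly the same sum in every library). Differences are log2 fold changes of KD minus shCtrl on the log2(TPM + 1) scale after scaling factors had been applied to the libraries. They were tested with limma over 16901 genes, and a gene was called at a Benjamini-Hochberg adjusted p under 0.05. The factors centre the median of all genes on 0, whereas in the TPM as deposited this median lay at -0.20, so a direction near 0 depends on the scale. The target GMDS-AS1, listed under its newer symbol GMDS-DT, stood at 1.66, 2.21 and 1.34 TPM in shCtrl and at 0.88, 0.91 and 0.79 TPM in KD. Its means were 1.74 ± 0.44 and 0.86 ± 0.0624 TPM (SD, n = 3). Its log2 fold change was -0.41 (SE 0.137, adjusted p = 0.0407 by limma), or -0.55 as deposited. At levels this low, the 1 added to each TPM shrinks a log2 fold change, so these values understate the drop in TPM. Of 7 colorectal epithelial markers, EPCAM, KRT8, KRT18, KRT19 and CDH1 were expressed and VIL1 and LGALS4 stayed below the expression filter, and KRT8, KRT18 and KRT19 fell in KD while 0 rose. Of the markers of other cell types reported here, PTPRC, CD3E, PECAM1, ALB and GFAP stayed below the filter. COL1A1 passed it, at 13.6 ± 0.831 TPM in shCtrl and 10.5 ± 0.46 TPM in KD (SD, n = 3). It was not called after scaling (log2 fold change -0.12) but was called lower as deposited (-0.34, adjusted p = 0.0044 by limma). The correlation of log2 values between libraries was 0.985 to 0.987 within a group and 0.956 to 0.958 between groups, a description across genes, and no library stood apart. The depth behind these values is unknown, because read totals cannot be recovered from TPM.

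The hairpin and a few promoters are printed first, because the hairpin defines the comparison and the promoters belong to the members at the ends of the range. In the hairpin lines the capitals mark the seed of the guide strand, bases 2 to 8, and its complement in the target.
shRNA 2 target: aagaccacagataGATGGTAa
shRNA 2 guide: tTACCATCtatctgtggtctt

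The 7 bases GATGGTA, which pair with that seed, occurred in the 3′ untranslated region of 6 of 78 members, or 7.69%, and of 828 of 12909 tested coding genes, or 6.41%. The 6 members were MRPL2, MRPL47, MRPS31, MRPS14, MRPS33 and MRPS21, and each had a positive log2 fold change on the scaled values, from 0.21 to 1.55. So did 74 of all 78 members. MRPS21 turned negative in the TPM as deposited. The sense strand's match, GTGGTCT, was found in 0 members and in 9.50% of the coding genes. A match is a description of letters and not a binding site.

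Promoters came from RefSeq on GRCh38.p14, where 69 of 78 members had an entry, and each gene was given the entry nearest to the start of its main GENCODE transcript. The windows ran from 250 bases before the RefSeq start to 50 bases after it. No limit was set on the distance between the RefSeq and the GENCODE start. It was 338188 bases for MRPS22, whose window has the ETS core described below. For MRPL38, MRPL40, MRPL41, MRPL48 and MRPL53 it was 529 to 680 bases. The windows of these members do not hold the GENCODE start, and they were still counted. The promoters of MRPL34 and MRPL4, the members with the highest log2 fold changes, of MRPL12, the member with the highest level, and of MRPS10, with the lowest log2 fold change, are given as the 100 bases before the start, 5′ to 3′ on the gene's strand. Capitals mark the SP1 letters GGGCGG in MRPL4 and the ETS core letters CCGGAA in MRPS10.
MRPL34 (chr19:17305553-17305652, plus strand): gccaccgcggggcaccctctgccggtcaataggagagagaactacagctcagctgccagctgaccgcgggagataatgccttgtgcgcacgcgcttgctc
MRPL4 (chr19:10251851-10251950, plus strand): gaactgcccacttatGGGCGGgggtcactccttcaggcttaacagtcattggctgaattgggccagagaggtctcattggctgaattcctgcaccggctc
MRPL12 (chr17:81703267-81703366, plus strand): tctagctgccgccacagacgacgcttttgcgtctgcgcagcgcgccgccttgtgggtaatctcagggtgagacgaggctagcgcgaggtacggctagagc
MRPS10 (chr6:42217862-42217961, minus strand): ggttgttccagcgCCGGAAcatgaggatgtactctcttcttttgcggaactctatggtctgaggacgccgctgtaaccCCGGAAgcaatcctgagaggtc

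On both strands of the whole windows, the ETS core CCGGAA, bound by factors such as GABP, was present in 41 of 69 member promoters (59.4%) and in 30.1% of the 10396 tested coding genes with an entry. The YY1 letters AAGATGGCG were in 13 member promoters (18.8%) against 4.03% of all. The NRF1 letters GCGCATGC were in 6 (8.70%) against 5.45%, and the SP1 letters GGGCGG in 42 (60.9%) against 72.4%. These shares describe the windows and were not tested. The median log2 fold change was 0.34 in members with the ETS core and 0.55 in those without it, and 0.53 against 0.39 for the YY1 letters. It was 0.43 against 0.46 for the NRF1 letters and 0.48 against 0.38 for the SP1 letters.

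Most mitochondrial ribosomal protein genes were higher in KD, by a modest amount. Of the 78 members, all of which passed the expression filter, 67 rose, 2 fell and 9 were not called. Over all genes tested, 28.5% rose and 25.9% fell. The median log2 fold change of the members was 0.45, with quartiles of 0.27 and 0.76 and a range from -0.28 to 1.90, against a median of 0 for all genes tested. Members are well expressed, with mean levels from 9.66 to 222 TPM, and among the 7557 tested genes within that range 43.5% rose and 25.6% fell with a median of 0.11. In the TPM as deposited 43 members rose, 5 fell and 30 were not called, against a background of 16.3% rising and 40.3% falling, and the median was 0.20. The 43 members were all among the 67, so 43 members rose on both scales and MRPS10 and MRPL10 fell on both. Another 23 members rose only after scaling, and MRPL53 was called higher after scaling and lower without it. Without any test, the 3 KD libraries lay above all 3 shCtrl libraries in deposited TPM for 46 members and below them for 9, where 18.8% and 44.9% of all genes did so.

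**Figure D1:**
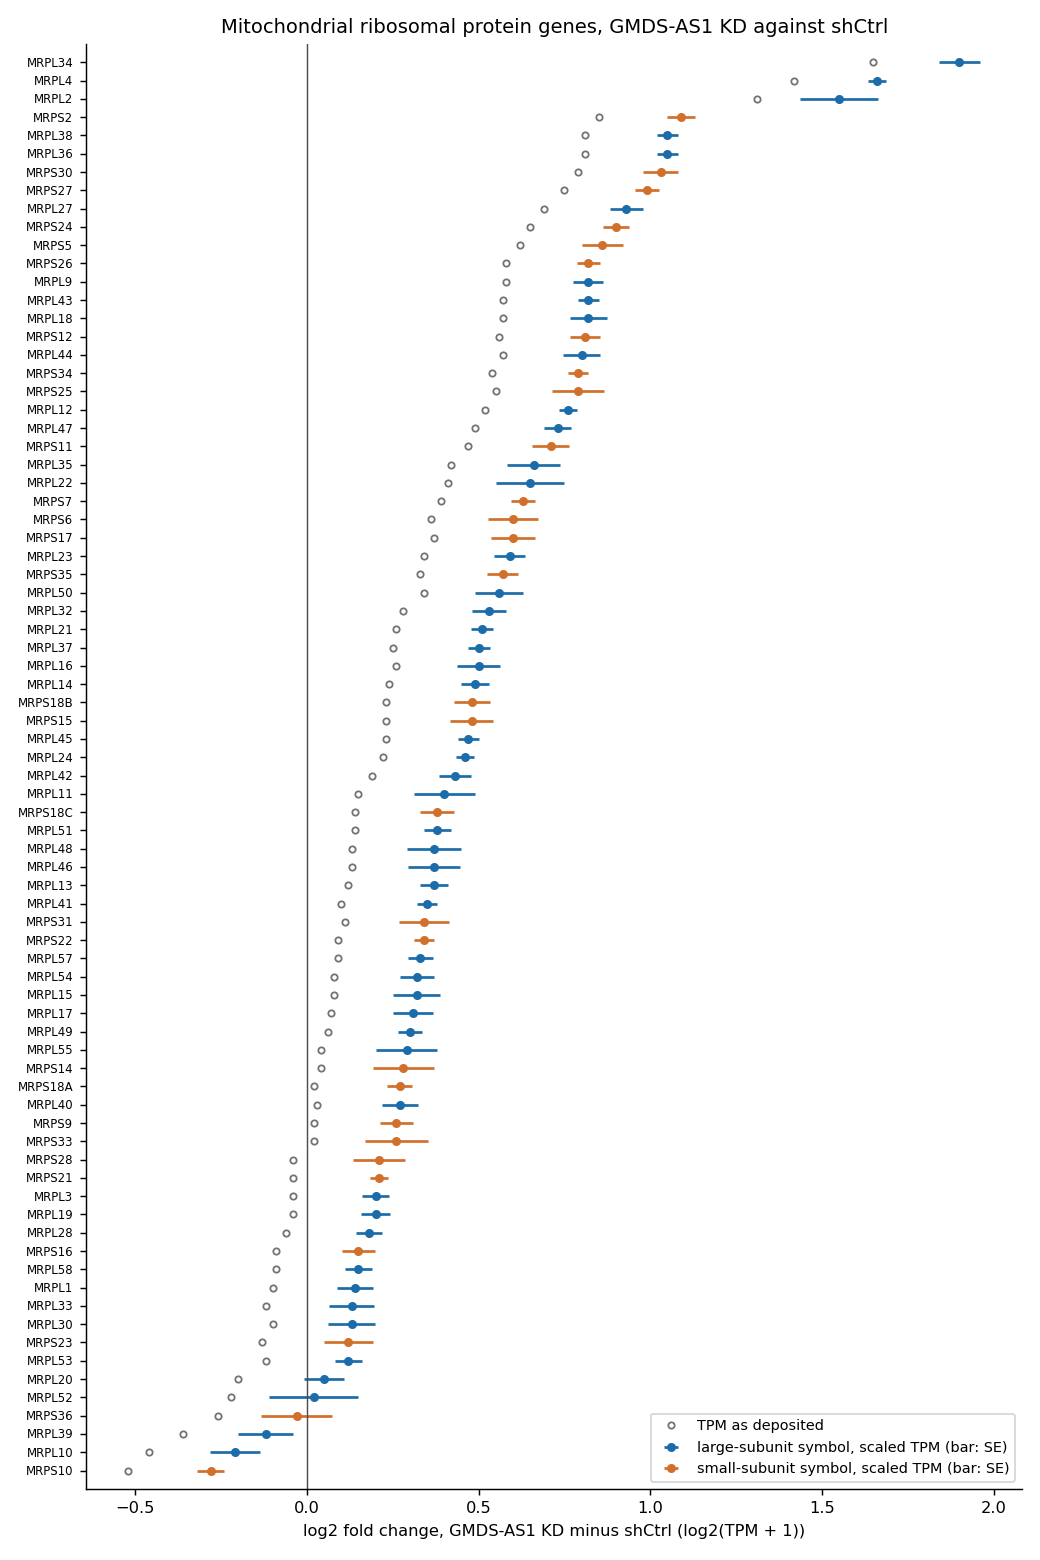
Log2 fold change (KD minus shCtrl, log2(TPM + 1)) of each of the 78 members, ranked, with filled points and SE bars for scaled TPM coloured by subunit symbol and open points for TPM as deposited. Filled points run from -0.28 for MRPS10 to 1.90 for MRPL34, 74 of them are above 0, and 60 of the open points are.

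The members past a 2-fold difference were 7 higher (MRPL34, MRPL4, MRPL2, MRPS2, MRPL36, MRPL38 and MRPS30) and 0 lower, where 2.93% of all genes were called at least 2-fold higher and 4.24% at least 2-fold lower. At a 2-fold limit in deposited TPM, only MRPL34, MRPL4 and MRPL2 were left. Next to the 2-fold limit, MRPS30 was just inside at a log2 fold change of 1.03 and MRPS27 just outside at 0.99.

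MRPL34 is a small large-subunit protein with a bacterial homologue. Its levels were 53.2, 50.3 and 44.2 TPM in shCtrl and 156, 157 and 158 TPM in KD. The groups were far apart, and the log2 fold change was 1.90 (SE 0.0602, adjusted p = 1.48e-06 by limma), or 1.65 as deposited. MRPL4, whose bacterial counterpart lines the exit tunnel of the large subunit, stood at 84.9, 83.3 and 81.4 TPM in shCtrl and at 223, 224 and 225 TPM in KD. Its log2 fold change of 1.66 had the smallest SE of all members (0.0257, adjusted p = 1.06e-07 by limma). MRPL2, a core protein next to the catalytic centre of the large subunit, was less even among libraries, with 48.9, 44.6 and 36.3 TPM in shCtrl and 118, 109 and 97.5 TPM in KD. Its groups did not overlap, and the log2 fold change was 1.55 (SE 0.113, adjusted p = 4.22e-05 by limma).

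These 3 genes lie on different stretches of the genome, MRPL34 on chromosome 19 at 17292609 to 17306843, MRPL4 on chromosome 19 at 10251901 to 10260045 and MRPL2 on chromosome 6 at 43054029 to 43059806 (GRCh38, GENCODE v29). Whether reads were counted by strand is not given in the sources used here, so genes that overlap may share reads. MRPL34 overlaps ABHD8, which had 5.22 ± 0.985 TPM (SD, n = 3) in shCtrl and 4.36 ± 0.231 TPM in KD. MRPL2 overlaps KLC4, on the opposite strand with a start 77 bases away, at 12.3 ± 0.119 TPM and 9.34 ± 1.06 TPM (SD, n = 3), which was not called (log2 fold change -0.15). No tested gene overlaps MRPL4.

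**Figure D2:**
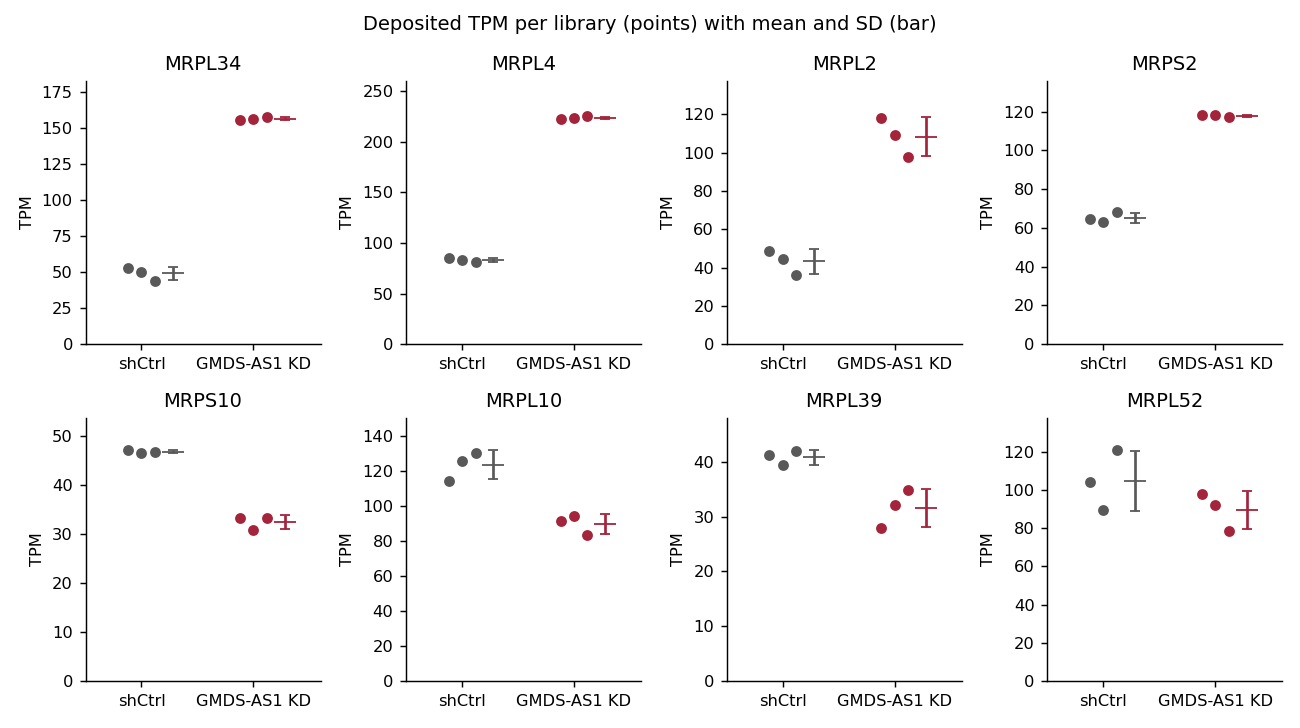
Deposited TPM in each of the 3 shCtrl and 3 KD libraries (points) with the group mean and SD (bars) for 8 members, each axis starting at 0. MRPL34, MRPL4, MRPL2 and MRPS2 are higher in every KD library, MRPS10, MRPL10 and MRPL39 are lower in every KD library, and the groups of MRPL52 overlap.

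Among large-subunit proteins with bacterial counterparts, MRPL36 and MRPL12 also rose. MRPL36, one of the smallest proteins of the ribosome, had 64.6, 64.6 and 66.3 TPM in shCtrl and 114, 114 and 116 TPM in KD, a log2 fold change of 1.05 (SE 0.0306, adjusted p = 1.14e-06 by limma). MRPL12, the stalk protein that helps recruit translation factors, had the highest level of the family, with 187, 183 and 178 TPM in shCtrl and 258, 260 and 268 TPM in KD. It rose by a log2 fold change of 0.76 (SE 0.0265, adjusted p = 1.92e-06 by limma).

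MRPL10, which anchors MRPL12 in the stalk, fell. Its 3 shCtrl libraries held 114.5, 126 and 131 TPM and its KD libraries 91.4, 94.6 and 83.7 TPM, so the groups of deposited TPM did not overlap. The log2 fold change was -0.21 (SE 0.0718, adjusted p = 0.0422 by limma) and -0.46 as deposited. This call was near the threshold: it was lost without several single libraries, where limma's adjusted p was 0.0788, 0.0878, 0.0833 and 0.122 without shCtrl replicate 2, shCtrl replicate 3, KD replicate 1 and KD replicate 3. MRPL11, at the base of the same stalk and chosen here after its values were seen, had 78.4 ± 10.6 TPM in shCtrl and 86.9 ± 3.61 TPM in KD (SD, n = 3), groups that overlapped, with a log2 fold change of 0.40 after scaling and 0.15 as deposited.

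MRPL30 and MRPL20 complete the named proteins with bacterial counterparts in the large subunit, and neither was called in the scaled values. MRPL30, among the lowest members in level, had 13.3, 11.5 and 12.6 TPM in shCtrl and 11.3, 11.4 and 12.0 TPM in KD (log2 fold change 0.13, adjusted p = 0.161 by limma), and it was called higher with upper-quartile scaling (0.21, adjusted p = 0.0397). MRPL20 had 167, 184 and 182 TPM in shCtrl and 144, 158 and 163 TPM in KD. Its KD libraries were all below its shCtrl libraries in deposited TPM, where it was called lower (log2 fold change -0.20, adjusted p = 0.0229 by limma), whereas the scaled difference was 0.05 (SE 0.0587, adjusted p = 0.51 by limma), so no direction is given for it.

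For this comparison the large subunit was taken by structure, with MRPS30 and MRPS18A counted as large and as mitochondria-specific. Its mitochondria-specific proteins had a median log2 fold change of 0.36 over 22 members. The 29 large-subunit members with a bacterial counterpart had a median of 0.50. MRPL38 had 89.5, 91.0 and 88.8 TPM in shCtrl and 164, 151 and 158 TPM in KD, a log2 fold change of 1.05 (SE 0.0316, adjusted p = 1.23e-06 by limma). MRPL50 had the lowest level of all members, 8.14, 8.19 and 8.93 TPM in shCtrl and 11.2, 11.04 and 10.5 TPM in KD. It still rose, by a log2 fold change of 0.56 (SE 0.07, adjusted p = 0.000552 by limma). MRPL41, at the third rank in level, had 196, 195 and 191 TPM in shCtrl and 205, 213 and 207 TPM in KD. The groups were close but did not overlap, with a log2 fold change of 0.35 (SE 0.0293, adjusted p = 8.6e-05 by limma) and 0.10 as deposited.

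MRPL52 had the largest SE of the named members, with 104, 89.5 and 121 TPM in shCtrl and 98.0, 92.4 and 78.6 TPM in KD. Its groups overlapped and the log2 fold change of 0.02 (SE 0.13) was not called (adjusted p = 0.892 by limma). MRPL39 and MRPL53, chosen after their values were seen, were below shCtrl in every KD library as deposited. MRPL39, related in sequence to threonyl-tRNA synthetase, had 41.3, 39.4 and 42.0 TPM in shCtrl and 27.99, 32.1 and 34.9 TPM in KD. Its log2 fold change was -0.12 after scaling (adjusted p = 0.239 by limma) and -0.36 as deposited (adjusted p = 0.00696). MRPL53 fell from 121 ± 1.75 TPM to 111 ± 5.77 TPM (SD, n = 3) as deposited and was called in opposite directions on the 2 scales, with log2 fold changes of 0.12 and -0.12.

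In the small subunit MRPS2, MRPS24, MRPS14 and MRPS10 have bacterial counterparts. MRPS2, between the head and the body of the subunit, had 64.5, 63.0 and 68.0 TPM in shCtrl and 118, 118 and 117 TPM in KD, a log2 fold change of 1.09 (SE 0.0416, adjusted p = 2.68e-06 by limma). It overlaps C9orf116 on the opposite strand, which rose from 4.75 ± 1.18 to 10.4 ± 1.14 TPM (SD, n = 3; log2 fold change 1.22, adjusted p = 0.000877 by limma), and the part of shared reads in either value was not tested. MRPS24, on the messenger entry side of the subunit, had 175, 160 and 163 TPM in shCtrl and 263, 253 and 269 TPM in KD. It ranked second in level and rose by a log2 fold change of 0.90 (SE 0.0385, adjusted p = 4.27e-06 by limma).

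MRPS14 had 14.2, 16.0 and 14.4 TPM in shCtrl and 13.8, 16.9 and 15.5 TPM in KD. These groups overlapped, and its call as higher (log2 fold change 0.28, SE 0.0891, adjusted p = 0.0359 by limma) was lost in the TPM as deposited, where the difference was 0.04. The call was also lost without shCtrl replicate 1 or 3 or KD replicate 2 or 3, with adjusted p of 0.121, 0.11, 0.0856 and 0.0753, with no expression filter (0.0779) and with the transcript length correction (0.0514). MRPS10, a protein of the head of the small subunit, had the lowest log2 fold change of the family. It had 47.2, 46.6 and 46.7 TPM in shCtrl and 33.2, 30.7 and 33.2 TPM in KD. The groups were well apart, and the log2 fold change was -0.28 (SE 0.0391, adjusted p = 0.000983 by limma) and -0.52 as deposited. Its gene (chromosome 6, 42206801 to 42217865, GRCh38) overlaps no other tested gene.

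MRPS27, a pentatricopeptide repeat protein of the small subunit, had 40.2, 42.1 and 39.8 TPM in shCtrl and 68.8, 67.6 and 71.3 TPM in KD. It rose by a log2 fold change of 0.99 (SE 0.034, adjusted p = 1.89e-06 by limma). MRPS30 had 46.3, 40.8 and 42.4 TPM in shCtrl and 75.8, 73.1 and 76.6 TPM in KD (log2 fold change 1.03, SE 0.0505, adjusted p = 7.36e-06 by limma). PTCD2, another mitochondrial RNA-binding protein gene, is read in the opposite direction from a start 106 bases from that of MRPS27, and the annotated genes overlap. PTCD2 fell, from 10.9 ± 0.885 to 5.16 ± 0.812 TPM (SD, n = 3; log2 fold change -0.73, adjusted p = 0.00183 by limma), so these adjacent genes moved in opposite directions.

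The names MRPS30, MRPS18A and MRPS36 do not match the position of their proteins. MRPS30 and MRPS18A sit in the large subunit in structures of the ribosome, and MRPS36 is now assigned to the oxoglutarate dehydrogenase complex and not to the ribosome. MRPS36 had 21.9, 21.5 and 24.3 TPM in shCtrl and 20.3, 19.7 and 16.1 TPM in KD, and was not called (log2 fold change -0.03, SE 0.103, adjusted p = 0.851 by limma). MRPS18A, MRPS18B and MRPS18C are paralogs of 1 bacterial protein, and only MRPS18C occupies the bacterial position in the small subunit. MRPS18A had 58.4, 56.0 and 54.0 TPM in shCtrl and 56.6, 57.6 and 57.0 TPM in KD, MRPS18B had 84.0, 83.4 and 73.6 TPM and then 91.5, 96.2 and 95.7 TPM, and MRPS18C had 29.8, 31.3 and 27.5 TPM and then 33.3, 31.9 and 32.4 TPM. The groups of MRPS18A overlapped and those of MRPS18B and MRPS18C did not. Their log2 fold changes were 0.27, 0.48 and 0.38, with SEs of 0.037, 0.052 and 0.0496, and each was called after scaling. In deposited TPM only MRPS18B was called (adjusted p = 0.011 by limma).

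The remaining 56 members gave log2 fold changes from -0.12 to 0.93. In the large subunit 34 of 37 of them rose, between 0.12 and 0.93, and in the small subunit 17 of 19 rose, between 0.15 and 0.86. None of the 56 fell in the scaled values, and MRPL1, MRPL33, MRPL39, MRPS23 and MRPS28 were not called. After the same scaling, 28.5% of all genes tested rose and 25.9% fell. In deposited TPM MRPL39 and MRPL53 were called lower, and some members, such as MRPL11, lost their call as higher. Their SEs ran from 0.0269 to 0.1. The plot of level and difference shows members at like levels with unlike differences.

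**Figure D3:**
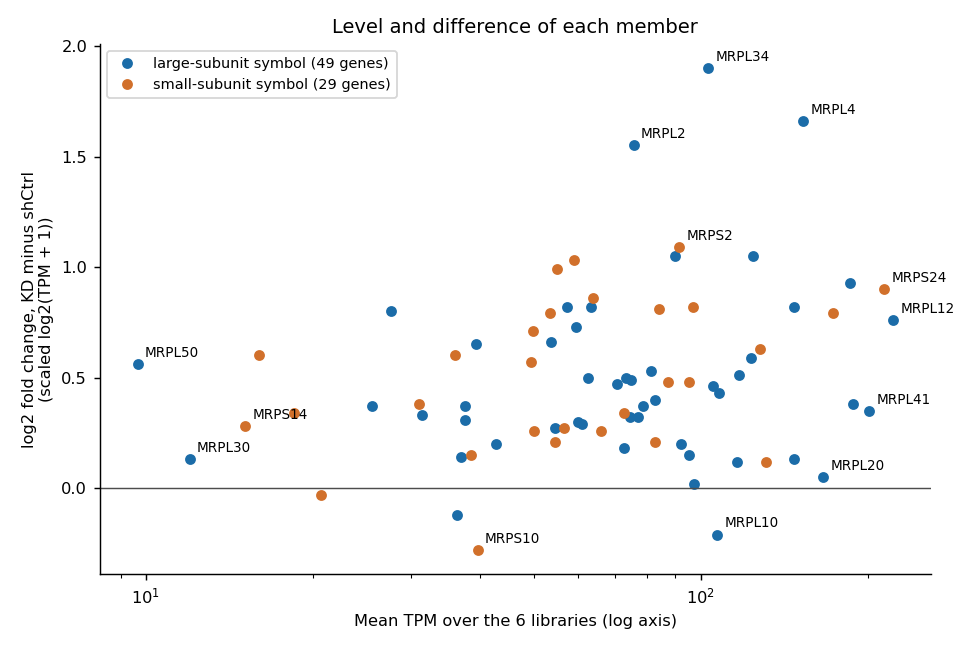
Log2 fold change (KD minus shCtrl, scaled log2(TPM + 1)) against mean TPM over the 6 libraries on a log axis, 1 point per member and coloured by subunit symbol. MRPL34 at 103 TPM and MRPL10 at 107 TPM have nearly equal levels and log2 fold changes of 1.90 and -0.21.

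The 2 subunits were also set side by side here, and they differed little. Large-subunit symbols had 42 of 49 members higher, 1 lower and 6 not called, with a median log2 fold change of 0.40. Small-subunit symbols had 25 of 29 higher, 1 lower and 3 not called, with a median of 0.48. The shares over all genes tested were 28.5% higher and 25.9% lower after scaling, and 16.3% and 40.3% in deposited TPM. Among genes in the members' range of level, 43.5% were higher and 25.6% lower after scaling. In deposited TPM the large subunit had 27 higher and 4 lower with a median of 0.15, and the small subunit 16 higher and 1 lower with a median of 0.23. With MRPS18A and MRPS30 counted as large and MRPS36 left out, 44 of 51 large-subunit genes and 23 of 26 small-subunit genes rose, with medians of 0.40 and 0.52. The 44 members with bacterial counterparts had a median of 0.50, with 38 higher and 2 lower, and 33 mitochondria-specific members had a median of 0.37, with 29 higher and 0 lower. MRPS18A and MRPS18B, though paralogs of a bacterial protein, were classed as mitochondria-specific, and MRPS36 was in neither class. No test was made between these lists, since members are not replicates.

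Summed over members, the large subunit held 3829 ± 26.0 TPM in shCtrl and 4689 ± 6.03 TPM in KD (SD, n = 3), and the small subunit 1792 ± 30.9 TPM and 2266 ± 9.34 TPM. The family took 0.560% to 0.571% of all TPM in shCtrl and 0.700% to 0.701% in KD. The ratio of large to small was 2.11, 2.14 and 2.16 in shCtrl and 2.06, 2.08 and 2.07 in KD, so the small subunit gained slightly more and the groups did not overlap. Without MRPL34, MRPL4 and MRPL2, which were picked after their values were seen, the ratio was 2.01 to 2.07 in shCtrl and 1.84 to 1.86 in KD. These are the large-subunit members that rose most, and no small-subunit member was left out. The wider gap between the groups therefore follows from the choice of genes and is no comparison of the subunits.

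**Figure D4:**
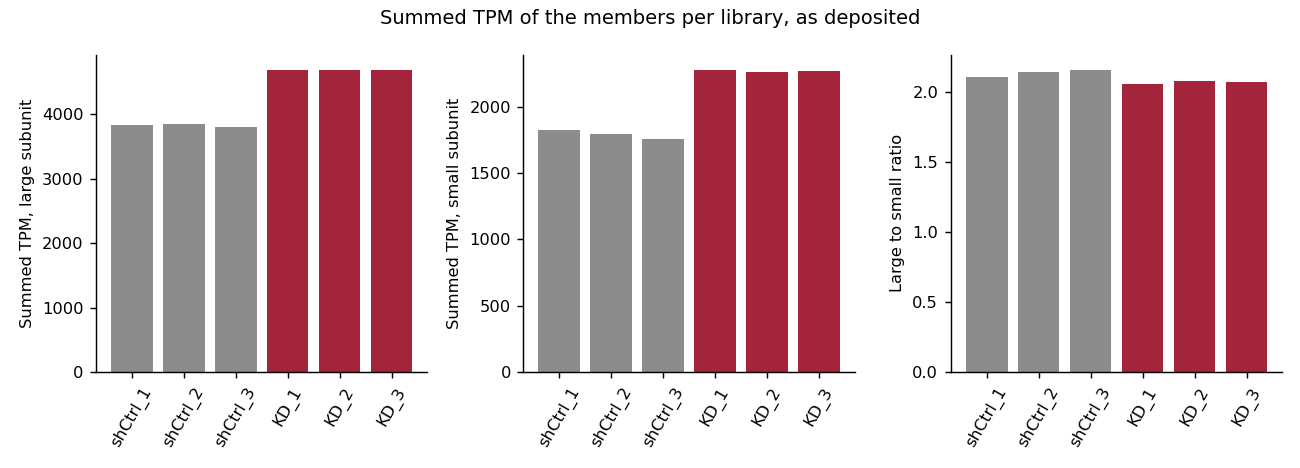
Summed deposited TPM of the large-subunit and the small-subunit symbols and their ratio, 1 bar per library, with shCtrl in grey and KD in red and axes starting at 0. Every KD bar is above every shCtrl bar for both sums, while the ratio is slightly lower in every KD library.

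Members with short transcripts are common in the family, and short coding transcripts had higher log2 fold changes over all genes as well. The median over tested coding genes was 0.18 for transcripts under 1000 bases, 0.12 from there to under 1500, 0.08 to under 2000, 0.03 to under 3000 and -0.05 from 3000 bases on. The members' medians in the same classes were 0.51, 0.37, 0.48, 0.28 and 0.56, over 15, 29, 18, 7 and 9 members. With the trend over transcript length removed, 62 members rose, 2 fell and the members' median was 0.40. The median over all 16686 genes in that fit was 0. The shares of all genes called in it are not given here, and in the main fit 28.5% rose and 25.9% fell. Lengths are those of 1 annotated transcript per gene, such as 15582 bases for MRPL42, and need not be the lengths expressed.

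The genes are spread over 21 chromosomes, and 40 of 78 overlap another tested gene. In the scaled values, the 38 members that overlap none had 31 higher and 2 lower, with a median log2 fold change of 0.34. Those with an overlap had a median of 0.48. On that scale 28.5% of all genes tested rose and 25.9% fell. A coding gene started on the opposite strand within 1000 bases of the start of 27 members. One such pair lies within the family: MRPL46 and MRPS11, of the large and the small subunit, start 34 bases apart on chromosome 15. MRPL46 stood at 35.9 ± 3.46 TPM in shCtrl and 39.3 ± 2.28 TPM in KD, and MRPS11 at 41.6 ± 2.35 TPM and 58.0 ± 3.85 TPM (SD, n = 3). Both rose after scaling, with log2 fold changes of 0.37 and 0.71, and the groups of MRPL46 overlapped in deposited TPM.

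The other pairs had 26 neighbours from outside the family, and these went in both directions. Of the 26, 9 rose, 7 fell and 10 were not called, with a median log2 fold change of 0. Among all genes tested 28.5% rose and 25.9% fell, also with a median of 0, so the neighbours were near the background. Neighbours that rose with their member included NDUFB5, a complex I subunit beside MRPL47 (0.99 against 0.73), and TCP1, a chaperonin subunit beside MRPL18 (0.74 against 0.82). SARS2, the mitochondrial seryl-tRNA synthetase whose start is 58 bases from that of MRPS12, fell by 0.26 on the log2 scale while MRPS12 had a log2 fold change of 0.81. NCAPD2, a condensin subunit beside MRPL51, fell by 0.57 on the log2 scale where MRPL51 had 0.38. These neighbours were chosen after their values were seen.

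Ribosomal components without an MRP symbol rose as well. All 5 were called: DAP3, the GTP-binding protein of the small subunit, at a log2 fold change of 0.17 (SE 0.0391), PTCD3, which sits at the messenger channel, at 0.40 (SE 0.12), CHCHD1 at 0.75 (SE 0.0478), AURKAIP1 at 0.45 (SE 0.0348) and GADD45GIP1 of the large subunit at 1.03 (SE 0.0908). In deposited TPM 3 of them rose and 0 fell, and the difference of DAP3 turned to -0.08. Of all genes tested, 28.5% rose after scaling and 16.3% in deposited TPM. The groups of GADD45GIP1 did not overlap, with 32.5, 38.7 and 38.6 TPM in shCtrl and 69.9, 63.1 and 59.0 TPM in KD.

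The RNA components of the ribosome moved apart. MT-RNR1, the small-subunit ribosomal RNA, had 3116, 3114 and 3010 TPM in shCtrl and 4004, 4290 and 4077 TPM in KD (log2 fold change 0.67, SE 0.0344, adjusted p = 9.1e-06 by limma). MT-RNR2, the large-subunit ribosomal RNA, had 7530, 7588 and 7933 TPM in shCtrl and 5344, 5441 and 5224 TPM in KD (log2 fold change -0.28, SE 0.0361, adjusted p = 0.000673 by limma). Both directions were the same in deposited TPM, at 0.42 and -0.53. The libraries were enriched for poly-A RNA, so these levels need not reflect the total amounts of ribosomal RNA.

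Of 25 assembly factors, which process and fold the ribosomal RNA and load the proteins, 16 rose and 1 fell, with a median log2 fold change of 0.29. The highest among those called was TRUB2, a pseudouridine synthase, at 0.92 (SE 0.129), and the lowest was MTG1, a GTPase of late large-subunit assembly, at -0.49 (SE 0.11). In deposited TPM 8 rose and 7 fell. Among all genes tested 28.5% rose and 25.9% fell after scaling, and 16.3% rose and 40.3% fell in deposited TPM. Within the members' range of level, 43.5% rose and 25.6% fell after scaling. Of 14 tested translation factors 8 rose and 1 fell, with a median of 0.37, and in deposited TPM 6 rose and 4 fell. OXA1L, the insertase to which the ribosome docks, led at 0.78 (SE 0.0323). GFM1, the mitochondrial elongation factor G, fell from 37.2 ± 1.35 to 19.8 ± 0.567 TPM (SD, n = 3; log2 fold change -0.64, adjusted p = 4.44e-05 by limma).

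Genes that copy and transcribe mitochondrial DNA and process its RNA had 10 of 13 tested members higher and 0 lower, with a median of 0.56 and 8 higher and 1 lower in deposited TPM. The shares over all genes tested were 28.5% higher and 25.9% lower, and 16.3% and 40.3% in deposited TPM. POLG, the catalytic subunit of the mitochondrial DNA polymerase, was highest at 0.94 (SE 0.126), and SLIRP, an RNA-stabilising protein, was lowest among those called at 0.29 (SE 0.0437). Of 9 tested regulators of mitochondrial gene expression 6 rose and 0 fell, with a median of 0.39 and 5 higher and 2 lower in deposited TPM. ESRRA, a nuclear receptor that drives oxidative genes, rose most, from 33.5 ± 1.46 to 61.3 ± 1.86 TPM (SD, n = 3; log2 fold change 1.09, adjusted p = 2.9e-06 by limma). NRF1 was lowest among those called at 0.23 (SE 0.0796, adjusted p = 0.0487 by limma) and showed no difference in deposited TPM. The coactivator PPARGC1A was listed at 0 in 5 libraries and at 0.01 TPM in KD replicate 3. PPARGC1B, in the same list, rose from 3.79 ± 0.193 to 7.56 ± 0.585 TPM (SD, n = 3; log2 fold change 1.04, adjusted p = 5.47e-05 by limma). Neither PPARGC1A nor PPARGC1B was picked by the naming rule.

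Cytosolic ribosomal protein genes, the counterpart outside the organelle, had 76 of 79 tested members higher and 1 lower with a median of 0.40, and 47 higher and 9 lower with a median of 0.15 in deposited TPM. Their log2 fold changes ran from -0.71 for RPL3L, which is close to the expression filter, to 1.13 for RPLP0 among those called. The median and the counts were thus near those of the mitochondrial family. The 13 messenger RNAs that the mitochondrial ribosome translates had 11 higher and 0 lower with a median of 0.28, from 0.13 for MT-CO1 to 0.75 for MT-CYB among those called, and 4 higher and 4 lower in deposited TPM. Beside these lists, 28.5% of all genes tested rose and 25.9% fell after scaling, and 16.3% rose and 40.3% fell in deposited TPM. No test was made between lists.

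**Figure D5:**
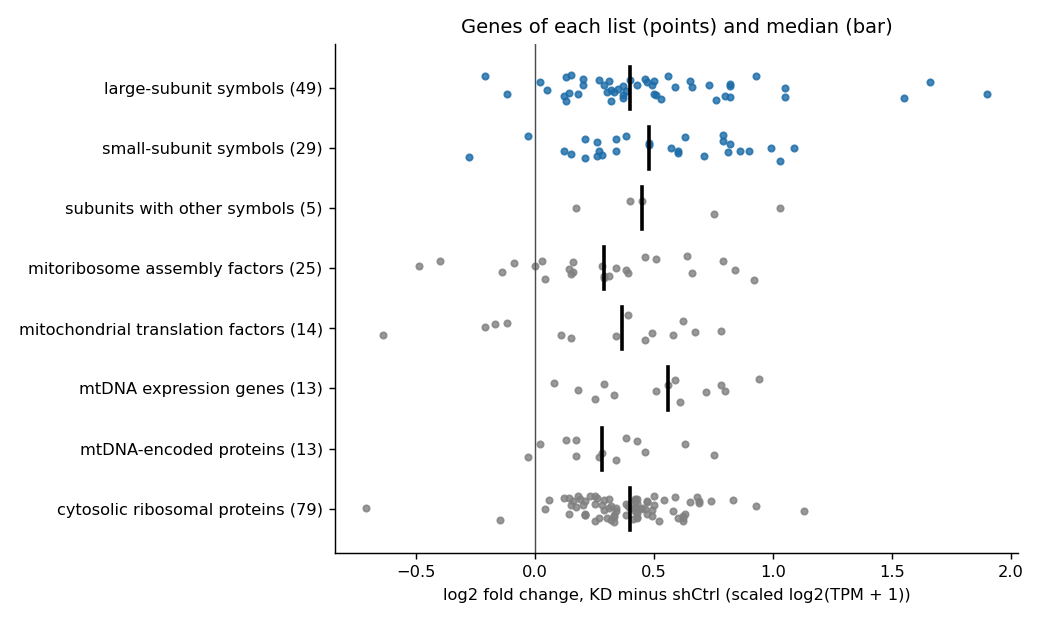
Log2 fold change (KD minus shCtrl, scaled log2(TPM + 1)) of each tested gene (points) and the median (bar) for the 2 subunits in blue and 6 related lists in grey, with the number of genes in brackets. The medians lie between 0.28 and 0.56, and the 3 points above 1.5 are MRPL34, MRPL4 and MRPL2.

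Another 85 gene symbols start with MRPL or MRPS, among them pseudogenes and antisense transcripts, and reads of a pseudogene may be split with its parent. The most abundant pseudogene, MRPL45P2, had 10.4, 9.14 and 11.3 TPM in shCtrl and 6.65, 4.60 and 3.28 TPM in KD and fell (log2 fold change -0.77, SE 0.212, adjusted p = 0.0195 by limma). MRPL45, which helps to tether the ribosome to the inner membrane, moved the other way, from 64.8 ± 1.16 to 76.2 ± 2.12 TPM (SD, n = 3; log2 fold change 0.47). MRPL45P2 and MRPL45 were chosen after their values were seen, and a split of reads between them was not tested.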

How the data were processed

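Poly-A enriched RNA of HCT116 cells was sequenced in 6 libraries, 3 shCtrl and 3 GMDS-AS1 KD. Per the labels, the authors trimmed reads with Trimmomatic 0.27 and aligned them with TopHat2 2.1.1 to GRCh38.p13, and their methods name Cufflinks, RSEM and, for their own comparison, DESeq2. The deposited values are TPM per Ensembl gene. Pairs of library columns that held identical values numbered 0.

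Positions came from GENCODE v29 on GRCh38, which held all 78 members. The 16901 genes that reached 0.5 TPM in 3 or more libraries were fitted on log2(TPM + 1) with limma 3.58.1 (R 4.3.3), with a variance trend and Benjamini-Hochberg adjustment, after trimmed-mean scaling factors (unweighted, 0.3 and 0.05 trimmed). The factors were 0.106 to 0.135 in shCtrl and -0.143 to -0.109 in KD on the log2 scale. On simulated data with 200 changed genes out of 16554, each changed by a log2 fold change of 1.5 in either direction, 173 were recovered and 13 others were called. The members' median was 0.45, so this run does not show how well differences of that size are called. The alternatives were TPM as deposited, upper-quartile scaling, another pseudocount, other filters, no variance trend, a replicate block, a transcript length correction, subunits by structure and leaving out each library.

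The members and lists were chosen with earlier results of these data known. Members named were the 8 with the largest log2 fold changes called in each direction (2 for lower), the 3 highest and 3 lowest in level, the MRPS18 paralogs, MRPS30, MRPS36, MRPL12 and the 3 nearest to no change. From other lists the highest and lowest among the called were named. TPM keeps no depth, so no counting error is given. One marker of another cell type is not reported here.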

Additional observations from a re-analysis of the deposited data

How the results depend on the processing

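In the TPM as deposited 43 members were higher and 5 lower, 3 changed at least 2-fold, the median was 0.204, the large subunit had 27 higher and 4 lower and the small subunit 16 higher. Upper-quartile scaling gave 1 lower (0 in the large subunit) and a median of 0.531. No filter, no variance trend and the replicate block each gave 1 lower, with 0 in the large subunit, and MRPL10 lost its call under each (adjusted p of 0.101, 0.0802 and 0.0738 by limma). The length correction gave a median of 0.396. Leaving out 1 library gave 61 to 65 higher, 1 to 2 lower, 6 to 8 at least 2-fold and a median of 0.405 to 0.465. The large subunit then had 39 to 41 higher and 0 to 1 lower and the small subunit 22 to 25 higher and 1 lower. The median of the large minus the small subunit, -0.08, ranged from -0.113 to -0.001 with 1 library left out, the latter without shCtrl replicate 3, and was -0.126 with subunits by structure.

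In the TPM as deposited 14 of 78 members turned negative, 7 of which had been called higher after scaling (MRPL3, MRPL19, MRPL28, MRPL53, MRPL58, MRPS16 and MRPS21). Among the members named by the rule, signs turned for genes that were not called in the scaled values: in the TPM as deposited MRPL20 (-0.20, called lower), MRPL30 (-0.10) and MRPL52 (-0.22), with upper-quartile scaling MRPS36 (0.05), with the length correction MRPL52 (-0.06), and without 1 library MRPL20 (range -0.02 to 0.11), MRPL52 (-0.11 to 0.13) and MRPS36 (-0.08 to 0.09). The cause was not tested. The replicate numbers do not pair the samples: same-numbered libraries deviated together with correlations of 0.029, -0.0376 and 0.0142, and 1 of 3 numbers matched itself best. With the number as a block 68 members were higher. TPM gives no read depth, so what depth limits could not be computed.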
